A study of Saccharomyces cerevisiae with 17 samples.

Results

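The genes described here are 10 genes of trehalose and glycogen metabolism in budding yeast, Saccharomyces cerevisiae, out of 6002 nuclear protein-coding genes. They were taken by name: TPS1, TPS2, TPS3, TSL1 and NTH1 of trehalose metabolism, GSY1, GSY2, GLC3 and GPH1 of glycogen metabolism, and PGM2, which feeds both. The study mapped methylation at lysine 4 of histone H3 (H3K4) by ChIP-seq, chromatin immunoprecipitation followed by sequencing, in strain BY4741A, grown in the rich medium YPD, in exponential growth. The study has 17 libraries: 4 genotypes with 2 antibodies and 2 replicates each, and 1 input of BY4741A cells. The genotypes are cells with wild-type Cps25, cells carrying Cps25 A142D, cells with a deletion of CPS25 and cells with a deletion of SET1. Set1 is the methyltransferase of COMPASS, the complex that makes H3K4 methylation in this yeast, and Cps25 is a COMPASS subunit related to mammalian Dpy-30. Peak lists of 4 libraries were used, all of replicate 1: H3K4me2 and H3K4me3 in Cps25 wild-type cells, and the same 2 antibodies in set1 deletion cells. The other 13 libraries were not analysed here. The labels do not say whether a genotype was 1 clone or several, or how the Cps25 wild-type cells were built.

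With 1 list for each group there was no replicate spread, so no test between groups was possible and each value describes that library. The read depth is unknown. The lists held 4393 H3K4me2 and 4087 H3K4me3 peaks in Cps25 wild-type cells, and 927 and 743 peaks in set1 deletion cells. A peak's score comes from the authors and its scale is unknown, so it is printed as a percentile within its own list, where a high percentile means a high score. SET1 itself had a peak of each mark at its start in the wild-type lists and none in the set1 deletion lists, where the gene is absent.

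Trehalose is a disaccharide of glucose that protects proteins and membranes under stress, and glycogen is the branched glucose polymer of the carbohydrate reserve. Both are made from UDP-glucose, and in yeast both are known to build up when glucose runs low, when growth slows or under stress. Many of these genes are known targets of the stress activators Msn2 and Msn4, and their activity in exponential growth on glucose is known to be limited by protein kinase A. H3K4me3 typically marks the 5′ ends of transcribed genes, and H3K4me2 lies around it and extends further into the gene.

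Among the 10 genes, the trehalose genes carried both marks and the glycogen genes carried little of either. This split was not among the planned comparisons. Of the other enzymes described below, NTH2 and ATH1 of trehalose breakdown and GLG1 of glycogen synthesis did not follow it, while GLG2, GDB1 and SGA1 of glycogen metabolism did. All 5 trehalose genes had a peak of H3K4me2 and of H3K4me3 over the first 500 bp of the open reading frame (ORF), the stretch used here to call a gene marked. Of the 4 glycogen genes and PGM2, 3 had an H3K4me2 peak and 0 had an H3K4me3 peak. Together 8 of the 10 genes were marked by H3K4me2, against a background of 75.1% of all 6002 genes, and 5 by H3K4me3, against 68.7%. The share with H3K4me2 was therefore near the background. The members are long genes, with ORFs of 1488 to 3297 bp and a median of 2191.5 bp, against a median of 1200 bp over all genes. Among the 2263 genes at least as long as the shortest member, 82.2% had H3K4me2 and 75.3% H3K4me3. Of the 8 genes with H3K4me2, GSY2, GLC3 and PGM2 (3 of 8) lacked H3K4me3, and over all genes with H3K4me2 this share was 11.8%. GSY1 and GPH1, 2 of 10, had neither mark, a state found in 22.4% of all genes.

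**Figure D1:**
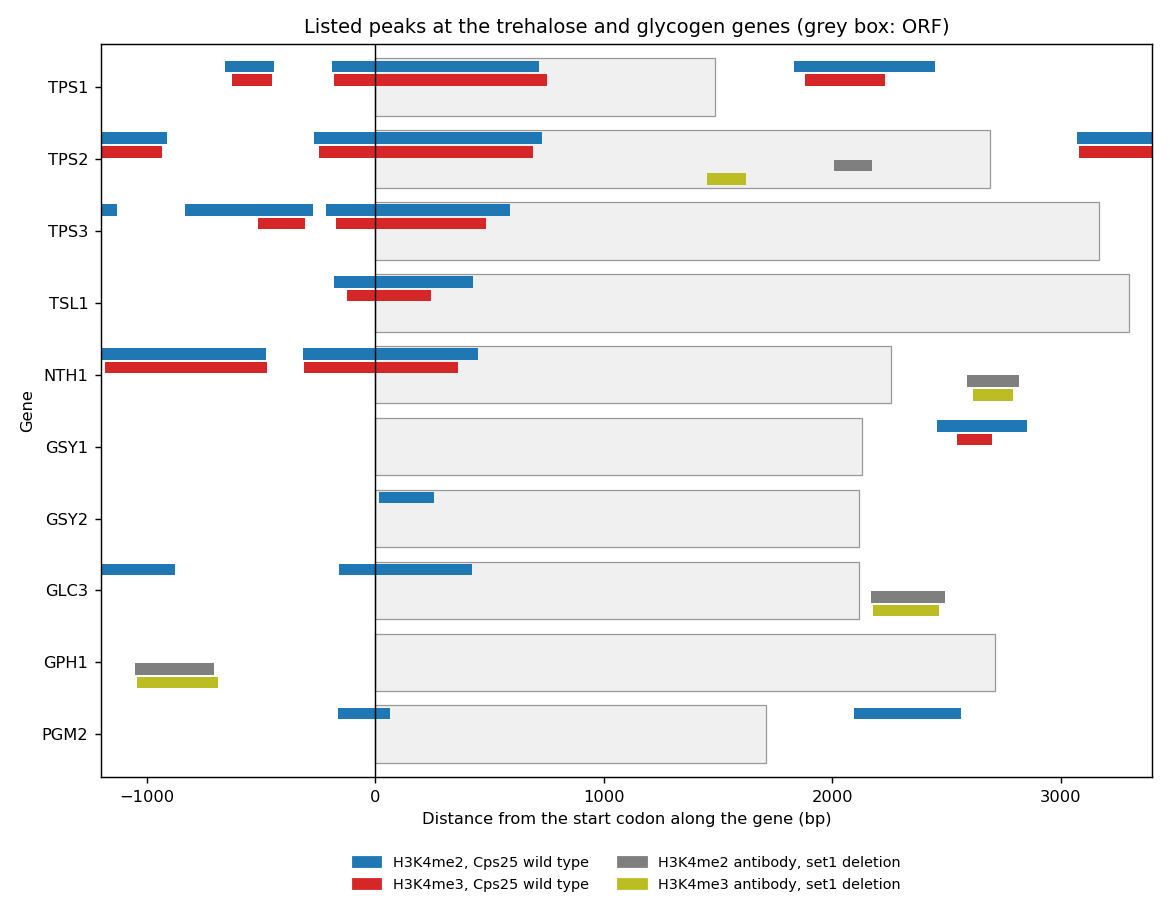
Listed peaks of the 4 libraries along each of the 10 genes, with the distance from the start codon in bp on the x axis, the ORF as a grey box and 1 bar per peak coloured by library. All 5 trehalose genes in the upper rows have a blue and a red bar across the start, while no red bar lies over GSY1, GSY2, GLC3, GPH1 or PGM2 and no blue bar over GSY1 or GPH1.

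TPS1 (YBR126C, chromosome II, 488905 to 490392 in sacCer3) encodes trehalose-6-phosphate synthase, the first enzyme of the pathway. Its H3K4me2 peak ran from 190 bp upstream of the start codon to 713 bp beyond it, was 904 bp wide and had score percentile 73.9. Its H3K4me3 peak ran from 183 bp upstream to 749 bp downstream, was 933 bp wide and had score percentile 76.7. In TPS1 the H3K4me3 peak thus ended 36 bp further into the gene than the H3K4me2 peak and was 29 bp wider. Over all 3975 genes with both marks, the H3K4me3 peak was the one to end further downstream in 5.06%. Peaks covered 48.0% of the TPS1 ORF for H3K4me2 and 50.4% for H3K4me3, the largest shares among the 10 genes.

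TPS2 (YDR074W, chromosome IV, 593893 to 596583) encodes the phosphatase that turns trehalose-6-phosphate into trehalose. It had the widest H3K4me2 peak of the 10 genes, 998 bp from 270 bp upstream to 727 bp downstream, and the highest H3K4me2 score, at percentile 92.1. Its H3K4me3 peak was 935 bp wide, from 247 bp upstream to 687 bp downstream, at the lower percentile of 61.8. Both enzymes of the synthesis route therefore had wide peaks: among all marked genes, the widths of TPS1 and TPS2 stood at percentiles 80.5 and 85.2 for H3K4me2 and at 90.2 and 90.4 for H3K4me3.

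TPS3 and TSL1 are paralogs that encode the large regulatory subunits of the synthase complex, and their peaks differed. TPS3 (YMR261C, chromosome XIII, 790205 to 793369) had an H3K4me2 peak of 806 bp, from 215 bp upstream to 590 bp downstream, at score percentile 81.0. Its H3K4me3 peak was 655 bp wide, from 172 bp upstream to 482 bp downstream, at percentile 73.6. TSL1 (YML100W, chromosome XIII, 70624 to 73920) had an H3K4me2 peak of 608 bp, from 182 bp upstream to 425 bp downstream, at percentile 12.6. Its H3K4me3 peak was 366 bp wide, from 124 bp upstream to 241 bp downstream, at percentile 14.3. In both lists TSL1 ranked lowest of the 5 trehalose genes, and its H3K4me3 peak covered 48.4% of the first 500 bp, where that of TPS3 covered 96.6%. The H3K4me2 peak of TSL1 passed the end of its H3K4me3 peak by 184 bp, the largest such difference among the 5 genes with both marks.

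NTH1 (YDR001C, chromosome IV, 450220 to 452475) encodes the neutral trehalase, which splits trehalose when growth resumes. Its H3K4me2 peak was 765 bp wide, from 318 bp upstream to 446 bp downstream, at score percentile 65.6, and its H3K4me3 peak was 673 bp wide, from 313 bp upstream to 359 bp downstream, at percentile 60.6. These peaks were of ordinary width (percentiles 62.1 and 65.4 among marked genes) but lay far upstream: their upstream reach stood at percentiles 85.7 and 91.0 and their downstream edge at 20.2 and 20.0. TPS1, TPS2 and TPS3 of trehalose synthesis and NTH1 of its breakdown thus had peaks above the median score of their list, while those of TSL1 lay below it. The other trehalase genes, NTH2 and ATH1, which are described below, did not share this. NTH2 had H3K4me2 alone at percentile 0.683, and ATH1 had neither mark listed.

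GSY1 and GSY2 encode the isoforms of glycogen synthase, Gsy2 being the main one. GSY1 (YFR015C, chromosome VI, 174265 to 176391) had no peak over its ORF in any of the 4 lists. The nearest wild-type peaks began 2456 bp (H3K4me2) and 2547 bp (H3K4me3) downstream of its start codon, beyond the end of the gene. GSY2 (YLR258W, chromosome XII, 660716 to 662833) had an H3K4me2 peak of 240 bp that lay wholly inside the ORF, from 18 to 257 bp after the start codon. Its score percentile was 0.728, rank 4362 of 4393, and the nearest H3K4me3 peak lay 1545 bp from the start. GSY2 was the only member with a peak that did not hold the start codon, while 95.4% of all genes with an H3K4me2 peak had it over the start codon. For H3K4me3, the peaks of all 5 marked members held it, against 93.4% of all marked genes.

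GLC3 (YEL011W, chromosome V, 133120 to 135234) encodes the glycogen branching enzyme. Its H3K4me2 peak was 580 bp wide, from 159 bp upstream to 420 bp downstream, with a score at percentile 7.94. The nearest H3K4me3 peak lay 3795 bp from its start. The width and position resembled those of TSL1, with 84.2% and 85.2% of the first 500 bp under H3K4me2, and of these 2 genes only TSL1 had a listed H3K4me3 peak.

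GPH1 (YPR160W, chromosome XVI, 861306 to 864014) encodes glycogen phosphorylase, which releases glucose-1-phosphate from the polymer. It had no peak over its ORF in any list, and the nearest wild-type peaks lay 3125 bp (H3K4me2) and 3171 bp (H3K4me3) from its start codon. PGM2 (YMR105C, chromosome XIII, 475897 to 477606) encodes the main phosphoglucomutase, which interconverts glucose-1-phosphate and glucose-6-phosphate. Its H3K4me2 peak was 229 bp wide and lay mostly upstream, from 163 bp before to 65 bp after the start codon, so that 13.2% of the first 500 bp was covered. The score was near the bottom of the list, at percentile 0.159 and rank 4387 of 4393, and the nearest H3K4me3 peak lay 5245 bp away.

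By score the 8 H3K4me2 peaks fell into a high and a low set with none between percentiles 12.6 and 65.6. TPS1, TPS2, TPS3 and NTH1 (4 of 8) stood above the median of the list, against 54.2% of all genes with a peak. TSL1, GLC3, GSY2 and PGM2 (4 of 8) stood in the lowest 25% of the list, against 20.2% of all such genes. In the H3K4me3 list the same 4 high genes stood at percentiles 60.6 to 76.7 and TSL1 at 14.3. No gene reached the top 5% of either list.

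**Figure D2:**
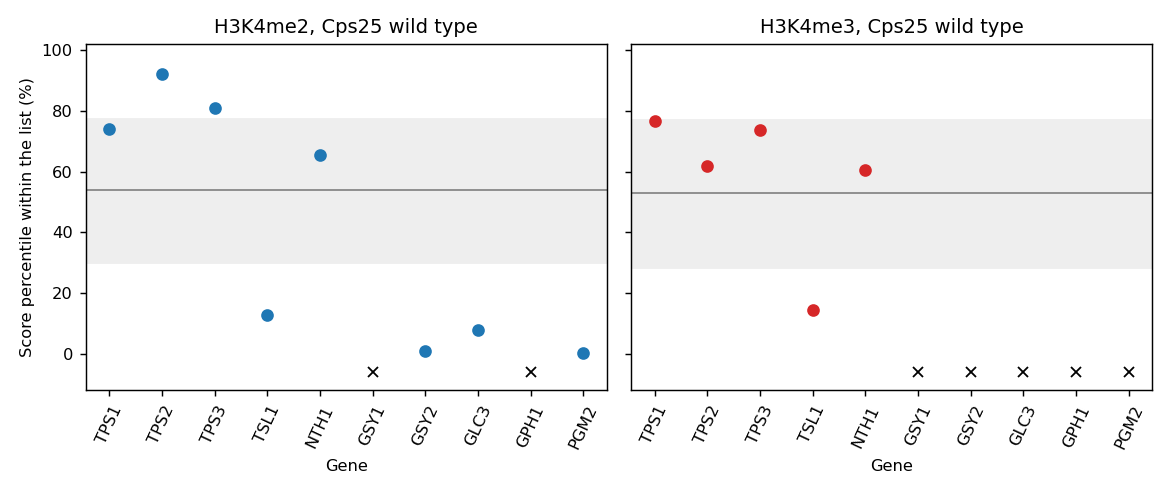
Score percentile of the 5′ peak of each of the 10 genes within its own list, in percent, for H3K4me2 (left) and H3K4me3 (right) of Cps25 wild-type cells. Points are single peaks, crosses mark genes with no listed 5′ peak, and the line and band give the median and quartiles over all marked genes. TPS1, TPS2, TPS3 and NTH1 lie above the line in both panels, and TSL1 lies below the band in both. GSY2, GLC3 and PGM2 lie below the band for H3K4me2 and are crosses for H3K4me3.

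The edges of the listed peaks were set beside those of all marked genes. The median upstream reach of the 8 H3K4me2 peaks was 186 bp, against 99 bp over all 4506 marked genes (quartiles 68 and 183 bp). The median downstream edge was 435.5 bp, against 572 bp (quartiles 474 and 668 bp), and the median width 686.5 bp, against 706 bp. The lower median of the downstream edge did not hold for the trehalose genes alone, whose median was 590 bp, nor for the 4 genes in the upper 50% of the list by score, with 651.5 bp. GSY2 had no upstream reach at all. For the 5 H3K4me3 peaks the medians were 183 bp upstream, 482 bp downstream and 673 bp of width, against 88, 493 and 612 bp over all 4126 marked genes. The downstream edges spread widely among the members, from 65 bp at PGM2 to 727 bp at TPS2 for H3K4me2 and from 241 bp at TSL1 to 749 bp at TPS1 for H3K4me3. In the 5 trehalose genes H3K4me2 began upstream of H3K4me3 in each case, and it ended further downstream in 4, with a median difference of 87 bp, close to the 82 bp over all genes with both marks. None of the members' peaks held the start of another nuclear coding gene (0 of 8 for H3K4me2 and 0 of 5 for H3K4me3), where 13.8% and 8.68% of all marked genes shared their peak. This depends on how the listed peaks were split. The H3K4me2 peaks of TPS3 and NTH1 reached 215 and 318 bp upstream, and the peaks over their divergent neighbours' starts began at 272 and 480 bp. Merging peaks within 200 bp joins these, and likewise those of H3K4me3. Each mark had 1 library, so depth and enrichment cannot be told apart as sources of the edges.

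**Figure D3:**
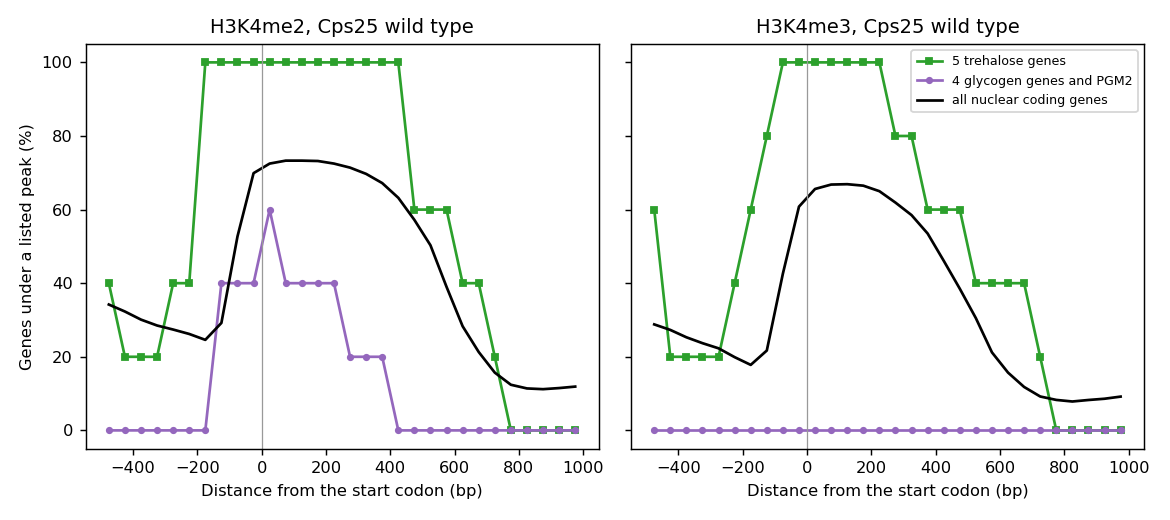
Share of genes under a listed peak (percent, y axis) in steps of 50 bp around the start codon (bp, x axis) for the 5 trehalose genes, for the 4 glycogen genes with PGM2, and for all 6002 nuclear coding genes. At 175 bp upstream all 5 trehalose genes are under H3K4me2, against 24.6% of all genes, and the line of the glycogen genes stays at 0 throughout the H3K4me3 panel.

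Neither set1 deletion list had a peak over the first 500 bp of any of the 10 genes, 0 of 10 for each antibody, against 4.75% and 3.40% of all genes. At the starts with a listed wild-type peak this follows largely from the taking out of set1 deletion peaks from the wild-type lists and is no result about the marks. TPS2 was the only member with background peaks over its ORF, far from the start: one of the H3K4me2 antibody from 2008 to 2170 bp after the start codon, at percentile 10.1, and one of the H3K4me3 antibody from 1451 to 1620 bp, at percentile 18.8. Peaks of both antibodies also lay upstream of GPH1, the H3K4me2 antibody's ending 707 bp and the H3K4me3 antibody's 690 bp before its start codon, over a tRNA gene and the small ORF YPR159C-A.

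According to the list names, peaks found in set1 deletion cells had been taken out of both wild-type lists, which leaves gaps in the running peak numbers, so absent peaks were set beside these gaps. Around the start of GPH1 no number was skipped in either list, nor in the H3K4me3 list around GSY2 and PGM2. Around GSY1 and GLC3 each list skipped 1 number. The set1 deletion peaks nearest to the start of GSY1 were 4438 bp (H3K4me2) and 4411 bp (H3K4me3) away, at a tRNA gene. Among listed wild-type peaks over the first 500 bp of any gene, the widest measured 2824 and 2145 bp. Peaks taken out are not among these, so their widths are unknown. At GLC3 the nearest set1 deletion H3K4me3 peak was 1766 bp away, again at a tRNA gene, so an H3K4me3 peak taken out there and reaching the start would have to be wider than 1766 bp. Another set1 deletion H3K4me3 peak began 2178 bp downstream of the start. A somewhat narrower peak taken out there could still have met the first 500 bp of the ORF. A set1 deletion peak was missing between 500 bp before and 1000 bp after the start in 5121 genes, a group that holds all 10 members and was defined after seeing the data, and in it 80.7% had H3K4me2 and 72.5% H3K4me3.

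Weak or missing marks at the glycogen genes did not extend to all of their neighbours. HSP60, the mitochondrial chaperonin gene that converges on GSY2, had peaks at score percentiles 70.3 (H3K4me2) and 92.2 (H3K4me3), and YLR257W upstream of GSY2 at 24.5 and 23.2. SGV1, an essential kinase gene that converges on GPH1, had peaks at 60.0 and 73.7. Around the other 3 genes the listed peaks of the neighbours were weak as well. UBC8, upstream of GLC3, and YPK2, downstream of PGM2, had H3K4me2 peaks at percentiles 11.5 and 10.1 and no listed H3K4me3 peak. YEL009C-A, downstream of GLC3, and YMR105W-A, upstream of PGM2, had neither mark listed. Around GLC3 each list skipped 1 number, so whether UBC8 carried H3K4me3, or YEL009C-A either mark, cannot be told from the lists. CMK1, downstream of GSY1, had both marks at 18.0 and 1.91. AIP5, upstream of GSY1, was not listed with either mark, but the tRNA gene with set1 deletion peaks lies just upstream of its start, in the stretch with the skipped number, so whether AIP5 carried the marks cannot be told from the lists.

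Of the 10 genes next to the 5 trehalose genes, 9 had H3K4me2 and 9 had H3K4me3, and of the 10 next to the glycogen genes and PGM2 the counts were 6 and 4, where the background was 75.1% and 68.7%. The last 2 counts take AIP5 as unmarked, for which the lists cannot tell. The same holds for YEL009C-A, the gene downstream of GLC3, with both marks, and for UBC8 with H3K4me3. These 2 genes lie in the stretch around GLC3 where the list skipped 1 number. The counts also take as unmarked YPR159C-A, the small ORF under set1 deletion peaks upstream of GPH1, where no number was skipped in either list. YRB1, a Ran-binding protein gene divergent from NTH1, had the strongest upstream peaks, at 83.3 and 87.8. YMR262W, divergent from TPS3 across 356 bp, had weaker ones at 18.3 and 7.54. The small ORF MEO1, divergent from TPS1 across 457 bp, was covered by narrow peaks at 3.60 and 3.01. TSL1 had the small ORF YML100W-A upstream, with neither mark listed.

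Among the other enzymes of the pathway 6 of 9 had H3K4me2 and 4 of 9 H3K4me3, against 75.1% and 68.7% of all genes. UGP1 (YKL035W), which makes the UDP-glucose that both routes consume, stood at score percentile 98.9 for H3K4me2 and 62.6 for H3K4me3, with peaks ending 785 and 717 bp after the start codon. PRM15 (YMR278W, also called PGM3), a phosphoglucomutase family gene, stood at 96.0 and 76.2. GLG1 and GLG2 encode glycogenin, the primer of glycogen synthesis: GLG1 had both marks at 18.8 and 12.2, and GLG2 had H3K4me2 only, at 3.46. GDB1, the debranching enzyme, ATH1, the acid trehalase, and SGA1, the glucoamylase of sporulating cells, had neither mark listed, and no peak number was skipped around them.

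Paralog partners of 2 members were also examined. NTH2, the paralog of NTH1, had an H3K4me2 peak of 259 bp inside the ORF, from 29 to 287 bp after the start codon, at percentile 0.683, and no listed H3K4me3 peak. PGM1, the minor phosphoglucomutase, had a wider H3K4me2 peak than PGM2, 672 bp at percentile 37.1, and also an H3K4me3 peak of 393 bp at percentile 14.2.

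Regulators of the pathway had H3K4me2 in 15 of 20 genes and H3K4me3 in 13 of 20, close to the background of 75.1% and 68.7%. The 5 with neither mark over the first 500 bp were GAC1, PIG1 and GIP2, which encode targeting subunits or putative targeting subunits of the phosphatase Glc7, IGD1, an inhibitor of the debranching enzyme, and DCS2, the paralog of the decapping scavenger gene DCS1. Further inside the ORF, H3K4me2 peaks covered 525 bp of GAC1 and 307 bp of GIP2. For IGD1 the absence is uncertain, since it lies in the same stretch as GSY1 and AIP5, where each list skipped 1 number. This is the number already counted at GSY1. Set1 deletion peaks lay 615 bp (H3K4me2) and 617 bp (H3K4me3) from the start of IGD1, while no number was skipped around the other 4. PIG2, a further Glc7 subunit of this family, had H3K4me2 alone at percentile 16.4. GLC7 itself had both marks at 50.5 and 66.9, and its activator GLC8 had the highest H3K4me3 percentile of the list, 89.4. SNF1, the kinase of glucose derepression, followed at 88.9. The stress activators differed: MSN2 had both marks at 86.1 and 68.1, the highest H3K4me2 percentile of the list ahead of PCL6, a cyclin of Pho85, at 85.9, while MSN4 had H3K4me2 alone at 8.42. Around MSN4 the H3K4me3 list skipped 1 number, with the nearest set1 deletion H3K4me3 peak 3122 bp from its start.

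**Figure D4:**
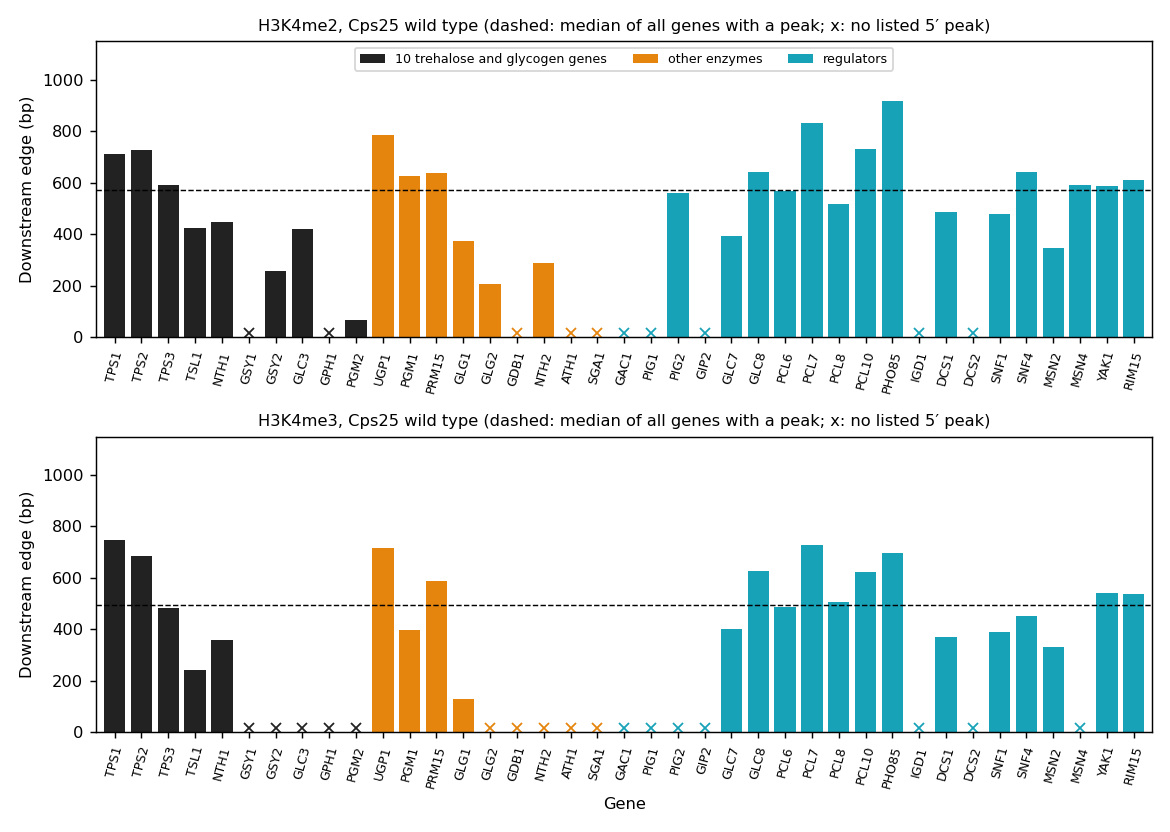
Downstream edge of the 5′ peak in bp after the start codon (y axis) for the 10 trehalose and glycogen genes, 9 other enzymes of the pathway and 20 regulators, in the H3K4me2 (top) and H3K4me3 (bottom) lists of Cps25 wild-type cells. Bars are single peaks, crosses mark genes with no listed 5′ peak and the dashed line is the median of all marked genes. GAC1, PIG1, GIP2, IGD1 and DCS2 carry crosses in both panels, as do GSY1, GPH1, GDB1, ATH1 and SGA1.

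The glycolytic genes, which share glucose-6-phosphate with these routes, gave another picture. Of 17, 6 had H3K4me2 and 3 had H3K4me3, against 75.1% and 68.7% of all genes. A set1 deletion peak lay over the first 500 bp in 8 of 17 for the H3K4me2 antibody and in 8 of 17 for the H3K4me3 antibody. Over all genes these shares were 4.75% and 3.40%. From 500 bp before to 1000 bp after the start, 11 of 17 had a peak of either, against 881 of all 6002 genes. Where such a peak lay at the start, a wild-type peak of the same antibody may have been taken out, so its absence there does not show that the mark was missing. Of the 10 trehalose and glycogen genes, 0 had such a peak near the start, and 5121 of all 6002 genes had none either.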

How the data were processed

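Peak lists of 4 libraries, 1 each in 4 of 9 groups, were used, and groups were taken from the sample titles. Bowtie 1.1.2, MACS2 2.1.1 and the build sacCer3 are named, without settings, per the submitters' processing notes. The authors deposited a score per peak, used here for ranks within a list, and for H3K4me2 of Cps25 wild-type cells also, per the file headers, a width, a nearest gene, a distance and a cluster number. For each cluster the authors deposited a table of gene ontology terms with gene counts, an enrichment ratio and a Fisher p-value, of which only the term names were read here. Depth is unknown, so no interval is given.

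Genes came from the RefSeq table of R64. Of the deposited distances to its genes, 99.9% were met within 2 bp, which tested that the builds match. Strand was read from the systematic name. A gene was called marked if at least 1 bp of a peak lay in the first 500 bp of its ORF, and its peak was the one with the largest overlap. Edges count from the A of the start codon. Of 46 genes written down in the comparison lists, 46 were found.

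The members and lists were chosen with earlier results of these data known. Named are the 10 genes, paralog partners NTH2 and PGM1, and of the pathway lists the genes without a peak and the 2 of highest score per mark. GLG1, GLC7, DCS1 and the neighbours of the members were added after their values were seen. A planned count of a promoter motif was not made, since no sequence was used. The code was tested on 200 simulated peaks, with 0 edges missed, and against bedtools 2.31.1 on 4 lists, with 0 genes differing. Python 3.11.15, numpy 2.4.6, pandas 2.3.3 and matplotlib 3.10.9 were used.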

Additional observations from a re-analysis of the deposited data

How the results depend on the processing

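The 5 trehalose genes kept their peaks of both marks, and GSY1 and GPH1 stayed without one, with a window from 250 bp upstream, over the whole ORF, with peaks merged within 200 bp or extended by 100 bp, and with an overlap of at least 50%. That overlap dropped PGM2 and left 7 of 8 H3K4me2 genes. With the upper 50% of each list by score, 4 genes remained for H3K4me2, TPS1, TPS2, TPS3 and NTH1, and the same 4 for H3K4me3. Over the whole ORF, 1 gene, TPS2, had a set1 deletion peak with each antibody.

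The medians moved under several settings. With the upper 50% by score, which left fewer genes, the downstream edge was 651.5 bp for H3K4me2, above the 572 bp of all genes where the value over 8 genes lay below it, and 584.5 bp for H3K4me3, the upstream edge -242.5 and -215 bp, the width 855 and 803 bp, and the difference of downstream edges 63.5 bp. With an overlap of at least 50%, the H3K4me2 edges were 446 and -190 bp and the width 765 bp. With peaks merged, which joined neighbouring peaks and kept the same genes, the H3K4me2 width was 756 bp, and the H3K4me3 width 935 bp with an upstream edge of -247 bp.

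No paired analysis was possible because each group had 1 peak list. Depth and replicate spread are unknown, so peaks near the bottom of a list, as at GSY2 and PGM2, have no replicate check.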

Other observations

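The nearest gene in the authors' deposited table was the member itself for 1 of the 8 H3K4me2 peaks at the starts of these genes, that of GSY2, whose peak does not hold the start codon. For the other 7 the authors' deposited table names a neighbour: MEO1 at TPS1, SNF11 at TPS2 (at 1184 bp), YMR262W at TPS3, YML100W-A at TSL1, YRB1 at NTH1, UBC8 at GLC3 (at 1189 bp) and YMR105W-A at PGM2. In the other direction, 7 peaks of the authors' deposited table name a member, and 1 of these overlaps the first 500 bp of that member. GSY1, which has no peak at its start, is named for a peak at 2456 bp. Over the whole list, 3993 of 4393 peaks hold at least 1 start codon of a nuclear coding gene, and the gene named by the authors' deposited table has its start inside the peak in 4 of these 3993 (0.1%). The sources used here do not state which gene names entered the gene ontology tables, and what other names would change there was not tested.

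By cluster number, the authors' deposited table puts the NTH1 peak in cluster 1, which holds 18.9% of the list, and the other 7 in cluster 2. Of the 59 terms of cluster 1 and the 21 of cluster 2 in the authors' deposited tables, 0 and 0 name glycogen, trehalose, glucose or carbohydrate.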
